A study of Rattus norvegicus with 19 samples.

Results

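The neuropeptides described here are thyrotropin-releasing hormone (Trh), somatostatin (Sst), melanin-concentrating hormone (Pmch), hypocretin or orexin (Hcrt), gastrin-releasing peptide (Grp), neuromedin B (Nmb), cholecystokinin (Cck), proenkephalin (Penk), the substance P precursor (Tac1) and the CART prepropeptide (Cartpt). They were taken as every probe set whose platform annotation gave 1 of these 10 symbols and no other. The rule found 10 probe sets, 1 for each gene, among 31099 on an Affymetrix GeneChip of the rat genome. RNA came from 2 hypothalamic nuclei, the supraoptic (SON) and the paraventricular (PVN), of untreated rats labelled as 12 weeks old, which the methods give as inbred males from 1 supplier. The groups were 5 arrays of PVN from spontaneously hypertensive rats (SHR), 5 of PVN from the normotensive Wistar-Kyoto strain (WKY), 4 of SHR SON and 5 of WKY SON. Each array was taken to hold a pool of nuclei from several rats, because the study speaks of pooled nuclei. The p-values therefore measure the spread between these samples, which may be technical, and not that between rats.

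The PVN holds magnocellular neurones, which send vasopressin and oxytocin to the posterior pituitary, and parvocellular neurones, which release hormones such as Trh and Sst towards the anterior pituitary or project to autonomic centres of the brainstem and spinal cord. The SON is almost purely magnocellular. Hcrt and Pmch are made by neurones of the lateral hypothalamus, which lies beside and behind the PVN, and all of these peptides are cut from larger precursors inside secretory granules.

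Proximal promoter sequences are given for the members that were called lower in SHR in the PVN or the SON and had a promoter entry. Entries came from the RefSeq promoter table (assembly GRCr8, a Brown Norway genome and neither study strain). A short stretch is given for Sst because it shares a motif with Cartpt. The table held a window of 300 bases, 250 before the annotated start and 50 from it on, for 7 of the 10 genes. Pmch, Cck and Penk had none. Each sequence is written 5′ to 3′ on the strand of its gene, and capitals mark the motifs searched. Nmb on the minus strand (chr1:144281423-144281572), Grp on the plus strand (chr18:61658505-61658654) and Cartpt on the minus strand (chr2:32991236-32991385) are shown for the 150 bases before the start. Sst on the plus strand (chr11:90461536-90461565) is shown for 30 bases around it.
Nmb: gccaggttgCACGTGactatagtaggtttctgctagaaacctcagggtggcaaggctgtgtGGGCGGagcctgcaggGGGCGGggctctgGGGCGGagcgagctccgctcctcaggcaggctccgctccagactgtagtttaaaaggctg
Grp: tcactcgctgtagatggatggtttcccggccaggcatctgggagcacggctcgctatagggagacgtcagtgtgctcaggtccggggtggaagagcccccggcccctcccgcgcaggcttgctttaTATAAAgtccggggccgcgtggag
Cartpt: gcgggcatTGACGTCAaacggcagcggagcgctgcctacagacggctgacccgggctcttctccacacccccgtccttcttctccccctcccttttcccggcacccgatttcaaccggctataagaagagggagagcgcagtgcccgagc
Sst: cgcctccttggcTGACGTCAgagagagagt

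The motif TGACGTCA, the cAMP response element, which reads the same on both strands, lay at positions -142 to -135 of Cartpt and 3 to 10 of Sst, counted with 1 as the first base of the annotated transcript and -1 just before it. It was found in 2 of the 7 member windows and in 1.83% of all 33469 windows in the table. The TATA motif TATAAA, searched on the gene's strand alone, lay at -24 to -19 of Grp and at -29 to -24 of Hcrt, so in 2 of 7 windows, against 8.80% of all. The GC box GGGCGG, searched on both strands, occurred 3 times in Nmb and once each in Hcrt and Trh, so in 3 of 7 windows, against 33.1% of all. The E box CACGTG, which also reads the same on both strands, lay at -141 to -136 of Nmb and in Tac1, so in 2 of 7 windows, against 6.42% of all. These matches describe the letters of the windows only, and the annotated starts of Nmb and Cartpt lie inside longer gene models with further starts.

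Signals are given as log2 of the MAS 5.0 signal after each array was centred on its median, so that 5.36 is the middle of every array and 1.91 is the floor set for dim signals. No member lay at the floor on any array. Dim probe sets were filtered out by asking that the mean of 1 group or more be at 5.32 or higher, the midpoint of the probe-set means. Two-sided limma tests were adjusted by Benjamini-Hochberg over all probe sets tested, and called at an adjusted p under 0.05. Deposited medians ran from 35.9 for PVN SHR array 1 to 46.5 for PVN SHR array 4. The mean correlation of an array with its own group ran from 0.929 for SON WKY array 3 to 0.968, with 0.947 for PVN SHR array 4.

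The tissue label was examined with markers of the PVN. Sim1, a transcription factor needed for the neurones of both nuclei in mice, averaged 6.19 ± 0.11 in SHR PVN and 7.12 ± 0.08 in WKY PVN (SD, n = 5 each). It averaged 6.54 ± 0.29 in SHR SON (SD, n = 4) and 7.51 ± 0.31 in WKY SON (SD, n = 5). The probe set of Pou3f2 was at the floor on all 19 arrays and that of Otp near it, so these developmental factors gave no reading in either nucleus. Corticotropin-releasing hormone (Crh), a parvocellular hormone, averaged 4.08 ± 0.18 in SHR SON against 8.74 ± 0.11 in SHR PVN, and 5.07 ± 0.16 in WKY SON against 9.14 ± 0.34 in WKY PVN.

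The largest contrast among the neuropeptides was between the nuclei. In both strains 9 of the 10 were lower in the SON than in the PVN and Nmb alone was higher, and all 10 differences were called. Hcrt and Grp passed the filter only through their PVN means. The members were named as parvocellular and neighbouring peptides, with earlier results of these data known. The counts and medians below are therefore a description and no independent test of a nucleus difference in such peptides. Of all 17095 probe sets tested, 29.4% were called in SHR and 26.9% in WKY. Those called lower in the SON made 15.7% of all tested in SHR and 13.7% in WKY. The median difference, SON minus PVN, over the members was -2.09 in SHR and -2.79 in WKY, against -0.02 and -0.01 over all probe sets tested. In bulk tissue, fewer cells of a type and less RNA per cell cannot be told apart, nor can the amount of neighbouring tissue in the dissected block.

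Trh, which drives the thyroid axis, had 5.57, 5.66, 6.37 and 6.11 in the SHR SON arrays, against 9.85, 9.58, 9.72, 9.78 and 10.10 in those of SHR PVN. In WKY it had 7.14, 6.10, 6.68, 6.50 and 6.65 in the SON, against 10.12, 9.98, 10.43, 10.23 and 10.29 in the PVN. Every SON array lay more than 2 log2 units under every PVN array. The fitted differences were -3.88 in SHR (adjusted p = 2.40e-12) and -3.60 in WKY (adjusted p = 4.09e-12), or 14.7-fold (95% interval 11.3 to 19.1) and 12.1-fold (95% interval 9.46 to 15.4).

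Sst, which inhibits growth hormone release from the pituitary, ran from 6.42 to 7.21 in SHR SON, against 11.27 to 11.45 in SHR PVN. Its range was 6.12 to 7.54 in WKY SON, against 11.50 to 11.87 in WKY PVN. The differences were -4.58 in SHR (adjusted p = 1.76e-12) and -4.79 in WKY (adjusted p = 4.20e-13), a gap of 23.9-fold and 27.8-fold.

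The 2 lateral hypothalamic peptides were among the probe sets that differed most between the nuclei. Pmch, which promotes feeding, was 44.8-fold lower in the SON in SHR (95% interval 33.6 to 59.7, adjusted p = 6.21e-14) and 58.6-fold lower in WKY (95% interval 44.7 to 76.7, adjusted p = 6.40e-15). Ordered from the most negative difference it stood at 5 of 17095 in SHR and at 2 in WKY. Hcrt, which maintains wakefulness, was 17.4-fold lower in SHR (95% interval 10.5 to 28.7, adjusted p = 1.52e-08) and 22.3-fold lower in WKY (95% interval 13.9 to 35.8, adjusted p = 2.27e-09). Its SON means, 4.58 in SHR and 4.51 in WKY, were under the filter, so that the folds of Hcrt rest on dim SON signals and it was tested through the PVN. With log2(value + 16) the differences of Hcrt, SON minus PVN, were -3.43 in SHR and -3.73 in WKY, against -4.12 and -4.48 without the added value, and the calls were kept. Pmch gave strong signals in tissue labelled as PVN, between 11.06 and 12.06 in SHR and between 11.69 and 12.01 in WKY, although its known cell bodies lie lateral to that nucleus. Lhx9, another gene of the lateral hypothalamus list, averaged 4.84 ± 0.47 in SHR PVN and 4.39 ± 0.33 in WKY PVN and was under the filter. The part of neighbouring tissue in these levels was not tested.

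Grp, a bombesin-like peptide, had 4.38, 3.86, 4.06 and 3.93 in SHR SON, against 6.82, 6.27, 6.27, 5.68 and 6.62 in SHR PVN. Its SON signals lay under the middle of every array, and its SON means (4.06 in SHR and 4.11 in WKY) under the filter. The difference was -2.28 in SHR (adjusted p = 6.52e-08) and -3.24 in WKY (adjusted p = 1.75e-10). With log2(value + 16) it was -1.57 in SHR and -2.41 in WKY, again called, so that the size of the gap in Grp depends on how dim signals are treated. Penk, the precursor of the enkephalins, was 3.74-fold lower in the SON in SHR (95% interval 2.83 to 4.94) and 5.08-fold lower in WKY (95% interval 3.91 to 6.61).

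Cck, Cartpt and Tac1 differed less between the nuclei. Cck, a peptide that some oxytocin neurones also make, was lower in the SON by 1.58-fold in SHR and 1.49-fold in WKY. Cartpt, a peptide that restrains feeding, remained high in both nuclei, with group means of 10.98 in SHR SON, 11.67 in SHR PVN, 11.50 in WKY SON and 11.97 in WKY PVN. Its differences were -0.68 (adjusted p = 2.63e-04) in SHR and -0.47 (adjusted p = 0.00451) in WKY. Tac1, the precursor of substance P, differed by -0.72 (adjusted p = 0.00518) in SHR and -0.47 (adjusted p = 0.0478) in WKY, and it was the 1 member whose nuclei overlapped, in both strains. Over all probe sets tested the nuclei did not overlap for 23% in SHR and 21.9% in WKY. The WKY call on Tac1 was made without PVN SHR array 1 or 2, SON SHR array 2 or 4, or SON WKY array 5 and lost without any of the other 14 arrays, with differences from -0.51 to -0.40 in those 14 fits, and was also lost after quantile normalization and with no filter. The SHR call on Tac1 was lost with the test of the study's methods. Here and below, only the test itself was taken from the methods, and p was adjusted over all probe sets past the filter on mean signal. The study's present calls, 2-fold cut-off and GeneSpring normalisation were not applied with it. What the study's full procedure would call was therefore not tested.

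Nmb, a bombesin-like peptide related to Grp, ran the other way. It had 6.34, 6.11, 6.0 and 6.30 in SHR SON, against 5.63, 5.80, 5.54, 5.48 and 5.65 in SHR PVN. In WKY it had 6.94, 7.29, 7.0, 7.42 and 7.49 in the SON, against 5.58, 5.57, 5.94, 5.74 and 5.54 in the PVN. All SON arrays lay above all PVN arrays of the same strain. The gap was 0.57 in SHR (adjusted p = 0.00186) and 1.55 in WKY (adjusted p = 4.34e-09), or 1.48-fold (95% interval 1.24 to 1.78) and 2.93-fold (95% interval 2.47 to 3.48).

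**Figure D1:**
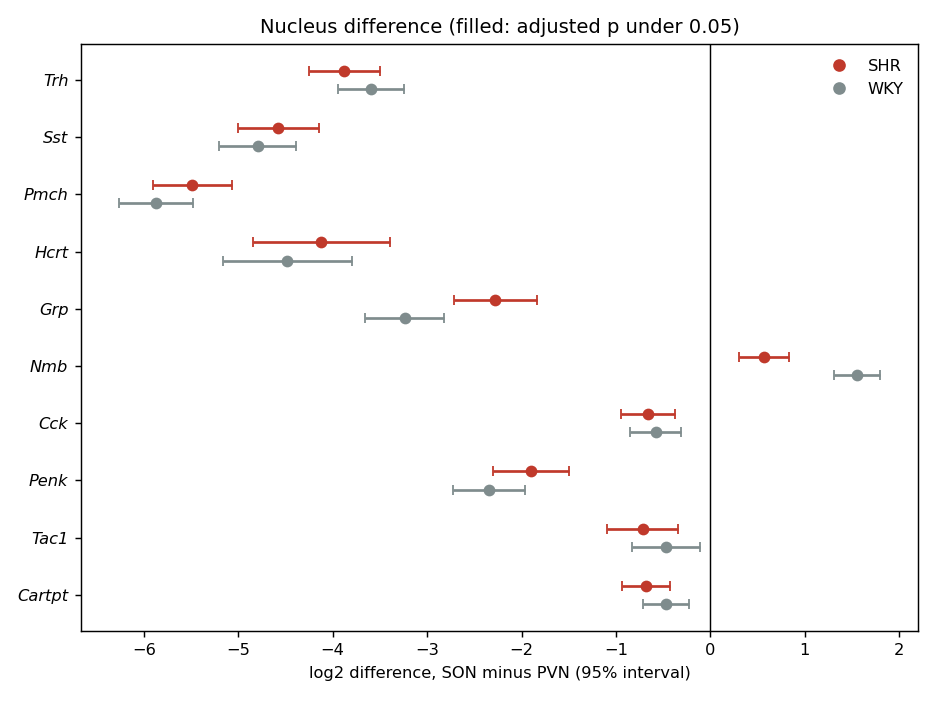
Difference between the nuclei, SON minus PVN, of each neuropeptide on the log2 scale with its 95% interval from limma, for SHR (red) and WKY (grey). Pmch lies furthest to the left at -5.49 in SHR and -5.87 in WKY, and Nmb alone lies to the right of 0, at 0.57 and 1.55.

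From low to high, the group means of Trh, Sst, Grp, Cck and Cartpt were in the order SHR SON, WKY SON, SHR PVN and WKY PVN. For Trh, Sst and Grp the arrays of SHR SON and WKY SON overlapped. For Cck the means were 7.91, 8.54, 8.57 and 9.12 in that order, and the SHR PVN arrays (8.24 to 8.86) overlapped those of WKY SON (8.29 to 8.81). The SHR PVN arrays of Cartpt (11.49 to 12.02) also overlapped those of WKY SON (11.30 to 11.89). Pmch, Hcrt and Penk had the same order in the PVN, while their means in SHR SON exceeded those in WKY SON by 0.11, 0.08 and 0.02 with overlapping arrays. Nmb ran in the order SHR PVN 5.62, WKY PVN 5.67, SHR SON 6.19 and WKY SON 7.23, and its PVN groups overlapped. Tac1 had 5.58 in SHR SON, 5.69 in WKY SON, 6.16 in WKY PVN and 6.30 in SHR PVN, with overlap between the strains in each nucleus.

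**Figure D2:**
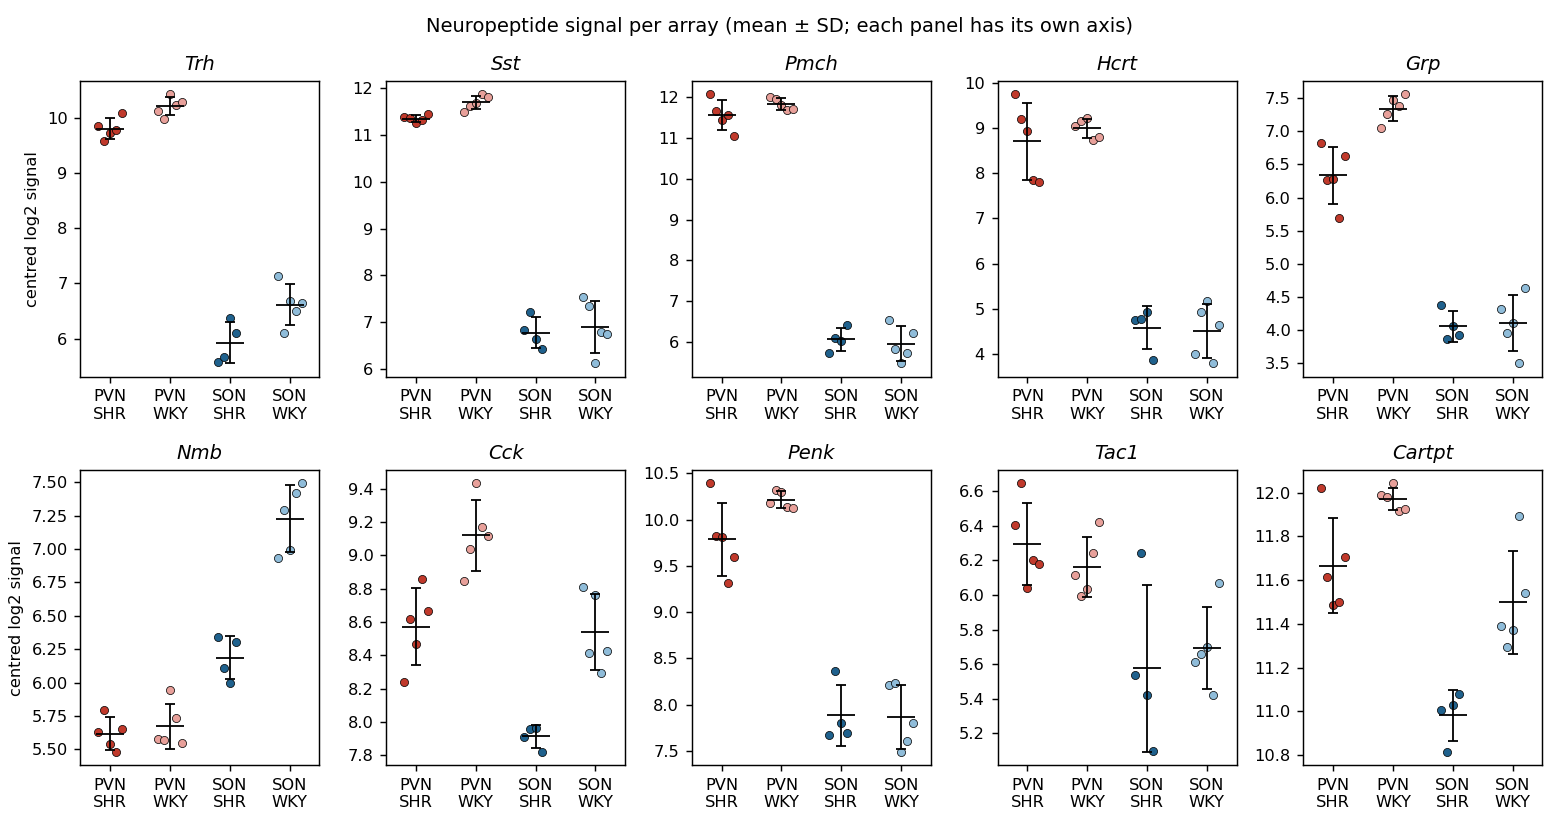
Centred log2 signal of each neuropeptide on every array, with the group mean and SD as bars, for SHR and WKY PVN (5 arrays each), SHR SON (4) and WKY SON (5); each panel has its own axis. Within each strain the PVN arrays stand above the SON arrays in 8 panels, overlap them in part for Tac1 and stand below them for Nmb.

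Between the strains, Grp and Cck were lower in SHR than in WKY in the PVN. These were 2 of the 10 members, all tested, at a background of 2.36% of 16104 probe sets called and 1.22% called lower in SHR. The difference was negative for 9 of 10 members, 6 of them at an unadjusted p under 0.05, and the members' median was -0.32, against -0.04 over all probe sets tested. No background share is given for negative signs or for unadjusted p, here or below, so these counts cannot be judged against all probe sets. The strains did not overlap for Grp and Sst, both lower in SHR, as was the case for 4.37% of all probe sets tested and, with SHR lower, for 2.52%.

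Grp had 6.82, 6.27, 6.27, 5.68 and 6.62 in the SHR PVN arrays, against 7.06, 7.26, 7.47, 7.37 and 7.56 in the WKY PVN arrays. Each SHR array was under each WKY array, with SHR array 4 the lowest. The difference was -1.01 (standard error 0.18, adjusted p = 0.00383 from limma), so that SHR was 2.01-fold lower (95% interval 1.55 to 2.61). It was the 1 member past 2-fold, where 0.627% of probe sets were called, and stood at 53 of 16104 from the most negative difference. The call held without any single array, with differences from -1.13 to -0.85, and was lost with no filter on dim probe sets and with the test of the study's methods.

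Cck had 8.24, 8.62, 8.47, 8.86 and 8.67 in SHR PVN, against 8.84, 9.04, 9.43, 9.17 and 9.12 in WKY PVN. SHR array 4 reached just above WKY array 1, and the other arrays were apart. Its difference of -0.55 (standard error 0.13, adjusted p = 0.0421) corresponds to a 1.46-fold lower signal (95% interval 1.20 to 1.78). The call was kept without WKY array 1 or SHR array 4 and lost without any of the other 8 PVN arrays, with differences from -0.57 to -0.47 in those 8 fits. It was also lost after quantile normalization, with no centring, with no filter and with the test of the study's methods.

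The hypophysiotropic hormones had negative differences in the PVN that did not pass the test. Trh averaged 9.81 ± 0.19 in SHR and 10.21 ± 0.17 in WKY (SD, n = 5 each), a difference of -0.40 (95% interval -0.66 to -0.15, adjusted p = 0.111). Sst had 11.39, 11.36, 11.27, 11.32 and 11.45 in SHR, against 11.50, 11.62, 11.68, 11.87 and 11.82 in WKY. Its strains did not overlap, yet the gap was -0.34 (95% interval -0.56 to -0.12, adjusted p = 0.116) and became -0.10 after quantile normalization.

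Of the members, Hcrt spread most widely among the SHR PVN arrays. The SHR PVN SD of Pmch (0.36), the other lateral hypothalamic peptide, was below those of Grp (0.43) and Penk (0.40). Hcrt had 9.74, 9.20, 8.93, 7.86 and 7.80 in SHR, against 9.04, 9.16, 9.21, 8.73 and 8.80 in WKY. The highest and the 2 lowest PVN values of Hcrt were all from SHR, with an SD of 0.85 in SHR and 0.21 in WKY. Pmch had 12.06, 11.65, 11.45, 11.56 and 11.06 in SHR, against 12.01, 11.96, 11.81, 11.69 and 11.71 in WKY, so that SHR array 1 was the highest and SHR array 5 the lowest for this gene too. Before centring, the deposited Pmch signal of SHR array 1 (3736) was below those of WKY array 1 (4157) and WKY array 2 (3997). The strain differences were -0.28 for Hcrt (95% interval -0.91 to 0.34, adjusted p = 0.755) and -0.28 for Pmch (95% interval -0.61 to 0.05, adjusted p = 0.467), and that of Pmch was 0.04 after quantile normalization. SHR array 1 was also the highest SHR array for Penk (10.39), Grp (6.82) and Cartpt (12.02), while it was the lowest for Cck (8.24). Its deposited median was the lowest of all arrays, so centring raised its values most. For Grp the deposited signal of SHR array 5 (106.6) was above that of SHR array 1 (98.7).

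**Figure D3:**
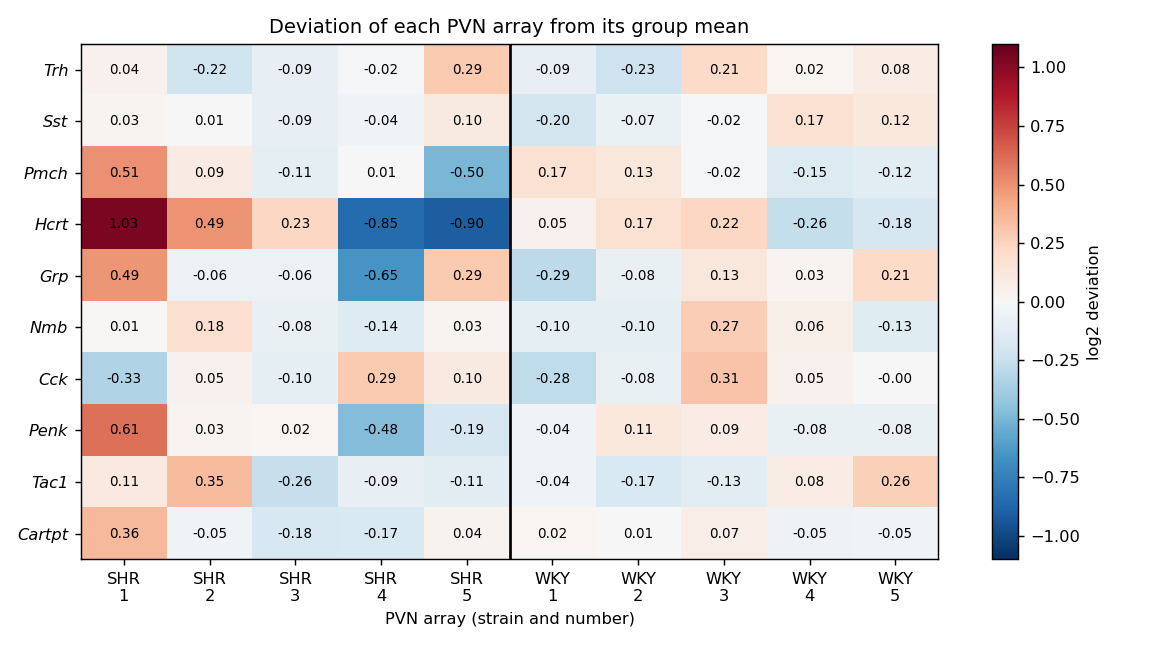
Deviation of the centred signal of each PVN array from the mean of its own strain, in log2 units, for each neuropeptide (SHR arrays at left, WKY arrays at right). SHR array 1 lies above its group mean for Hcrt, Penk, Pmch, Grp and Cartpt and below it for Cck, and SHR arrays 4 and 5 lie 0.85 and 0.90 below for Hcrt.

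The other PVN differences did not pass. Penk differed by -0.43 (95% interval -0.76 to -0.09, adjusted p = 0.226) and Cartpt by -0.31 (95% interval -0.55 to -0.06, adjusted p = 0.234). Both were called without SHR array 1, at -0.58 for Penk and -0.39 for Cartpt. After quantile normalization the difference of Cartpt was -0.02. Nmb differed by -0.06 (95% interval -0.29 to 0.18), and Tac1 was the 1 member with a positive difference, at 0.13 (95% interval -0.14 to 0.41).

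In the SON, Nmb, Cck and Cartpt were lower in SHR than in WKY, and these were also the 3 members whose strains did not overlap. Over all probe sets tested the 4 SHR and 5 WKY arrays did not overlap for 9.83%, and lay apart with SHR lower for 6.94%. They were 3 of the 8 members tested, with Hcrt and Grp under the filter, at a background of 3.62% of 16190 probe sets called and 2.33% called lower in SHR. The members' median was -0.32, against -0.04 over all probe sets tested. Of the 8 tested, 6 had a negative difference and 4 an unadjusted p under 0.05, again with no background share.

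Nmb averaged 6.19 ± 0.16 in SHR SON (SD, n = 4) and 7.23 ± 0.25 in WKY SON (SD, n = 5). The lowest WKY array (6.94) was well above the highest SHR array (6.34). The difference was -1.04 (standard error 0.14, adjusted p = 0.00121 from limma), or 2.06-fold lower in SHR (95% interval 1.67 to 2.53), at 60 of 16190 from the most negative difference. It was the 1 member past 2-fold in the SON, where 0.766% of probe sets were called. The call held in all 11 other settings and without any of the 9 arrays (-1.11 to -0.97).

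Cck had 7.91, 7.96, 7.97 and 7.82 in SHR SON, against 8.81, 8.42, 8.76, 8.29 and 8.42 in WKY SON. The SHR values were tightly grouped (SD 0.07) and all under those of WKY. Its difference of -0.63 (standard error 0.12, adjusted p = 0.0155) amounts to a 1.54-fold lower signal (95% interval 1.28 to 1.86) and was called without any single SON array, but not with no filter or with the test of the study's methods.

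Cartpt had 11.0, 10.81, 11.03 and 11.08 in SHR SON, against 11.39, 11.30, 11.37, 11.89 and 11.54 in WKY SON. The highest SHR array (11.08) was under the lowest WKY array (11.30). The difference was -0.52 (standard error 0.13, adjusted p = 0.0483), a 1.43-fold lower signal (95% interval 1.18 to 1.74). This call was kept without WKY array 3 and lost without any of the other 8 SON arrays, with differences from -0.57 to -0.42. It was also lost with no centring, no filter, the test of the study's methods and the replicate block.

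Trh averaged 5.93 ± 0.37 in SHR SON (SD, n = 4) and 6.62 ± 0.37 in WKY SON (SD, n = 5), a difference of -0.69 (95% interval -1.14 to -0.23) that did not pass (adjusted p = 0.0928). Sst, Pmch, Penk and Tac1 had SON differences between -0.13 and 0.11, with adjusted p from 0.799 to 0.973. Their intervals were wide, from -0.69 to 0.43 for Sst and from -0.40 to 0.43 for Penk. Hcrt and Grp, untested there, differed by 0.08 and -0.05 between the means of dim, overlapping signals.

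**Figure D4:**
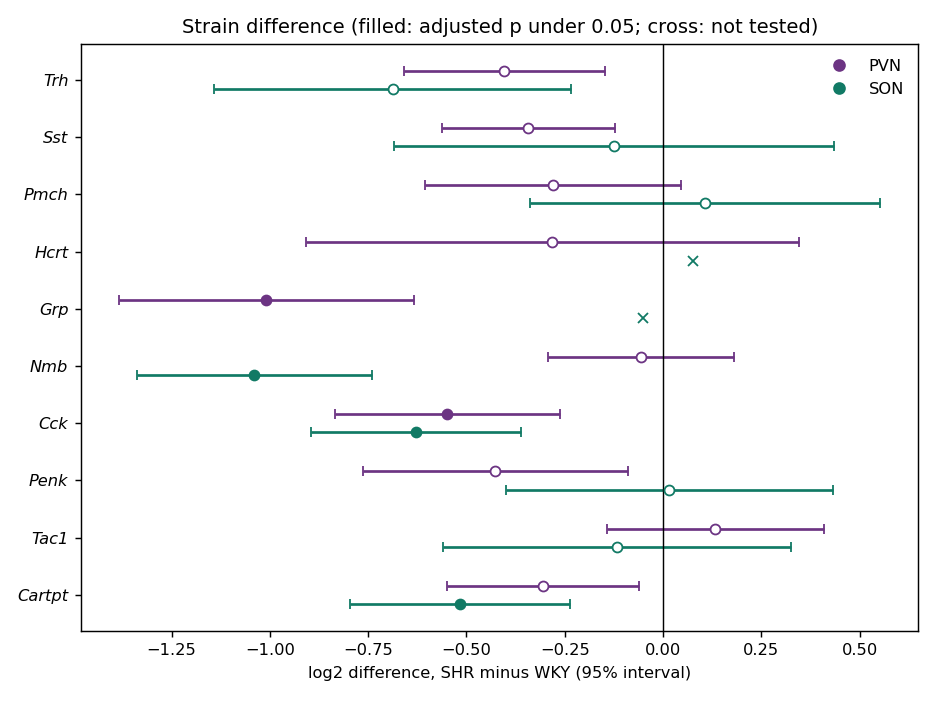
Strain difference, SHR minus WKY, of each neuropeptide on the log2 scale with its 95% interval from limma, in the PVN (purple) and the SON (green); crosses are differences of means that were not tested. Filled points, with an adjusted p under 0.05, are Grp at -1.01 and Cck at -0.55 in the PVN, and Nmb at -1.04, Cck at -0.63 and Cartpt at -0.52 in the SON.

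Whether the strain difference itself depended on the nucleus was tested over all 19 arrays. Nmb was the 1 member called, at a background of 14 of 17095 probe sets or 0.0819%. The SHR minus WKY difference of Nmb in the SON, less that in the PVN, was -0.98 (standard error 0.17, adjusted p = 0.0272 from limma). The call on Nmb was lost with no filter, with the replicate block, and without any of PVN SHR arrays 2, 3 and 5, PVN WKY arrays 1, 2 and 5, SON SHR arrays 2 and 3 or SON WKY arrays 2 and 4, with values from -1.0 to -0.92 in the fits that lack 1 array. Grp had a value of 0.96 (95% interval 0.35 to 1.56) that did not pass (adjusted p = 0.433), so a dependence of its strain difference on the nucleus was not shown. For Cck the value was -0.08 (95% interval -0.47 to 0.31), an interval that holds differences of either sign. The remaining 7 members had adjusted p from 0.812 to 0.926.

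The strain comparisons of the genes that receive, make or break down these or related peptides are given by count. Of 20 genes for receptors of the members or of related opioid and tachykinin peptides, 18 were on the array. The receptors of Grp and melanin-concentrating hormone (Grpr, Mchr1), Cckbr, Oprm1, Oprd1, Sstr5 and Tacr2 were under the filter in both nuclei. In the PVN 0 of 10 tested were called by limma or by the test of the study's methods, 1 had an unadjusted p under 0.05, and the median was -0.02. In the SON 3 of 9 tested fell in SHR and 0 rose, with a median of -0.08, and 0 were called by the test of the study's methods. The 3 called by limma were the kappa opioid receptor Oprk1 (-0.83, adjusted p = 0.0176), the neurokinin receptor Tacr3 (-0.83, adjusted p = 0.00549) and the somatostatin receptor Sstr1 (-0.46, adjusted p = 0.0460). The SHR SON mean of Sstr1 (5.20) was under the filter. Between the nuclei, Tacr3 was higher in the SON by 1.47 in SHR and 1.66 in WKY, with PVN means under the filter (4.60 in SHR and 5.24 in WKY), and Sstr1 differed by -1.88 in SHR and -1.40 in WKY.

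Of 21 genes for cutting precursors and building granules, all 20 on the array were tested, and their medians were -0.22 in the PVN and -0.27 in the SON. In the PVN 2 fell, the granule proteins Chgb (-0.49) and Resp18 (-0.45), and 18 did not pass. In the SON 5 fell and 15 did not pass. They were Chgb (-0.69), chromogranin A (Chga, -0.64), the prohormone convertase Pcsk2 (-0.62), the granule peptide Vgf (-0.47) and the convertase Furin (-0.46, adjusted p = 0.0281). The test of the study's methods called 1 gene of the list in each nucleus, Resp18 in the PVN and Chga in the SON. Furin was the 1 gene of the list with a called interaction (-0.84, adjusted p = 0.0339), at 6.60 ± 0.20 in SHR PVN against 6.22 ± 0.15 in WKY PVN and 5.69 ± 0.11 in SHR SON against 6.15 ± 0.13 in WKY SON.

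Of 15 peptide-degrading enzymes, 0 of 8 tested were called in the PVN by either test, with 2 at an unadjusted p under 0.05, and 1 of 9 in the SON, where angiotensin-converting enzyme (Ace), which also cleaves substance P and enkephalins, fell by 0.75 (adjusted p = 0.00506) and was called by both tests. Of 32 other hypothalamic neuropeptides, 1 of 16 tested in the PVN was called, atrial natriuretic peptide (Nppa), which rose by 0.86 (adjusted p = 0.00342). In the SON 3 of 13 fell. They were urocortin (Ucn, -1.87, adjusted p = 2.68e-05), gonadotropin-releasing hormone (Gnrh1, -0.65) and Vgf, which is in both lists. The list medians were -0.08 in the PVN and -0.36 in the SON. By the test of the study's methods 0 were called in the PVN, where Nppa had an adjusted p of 0.103, and Ucn alone in the SON.

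**Figure D5:**
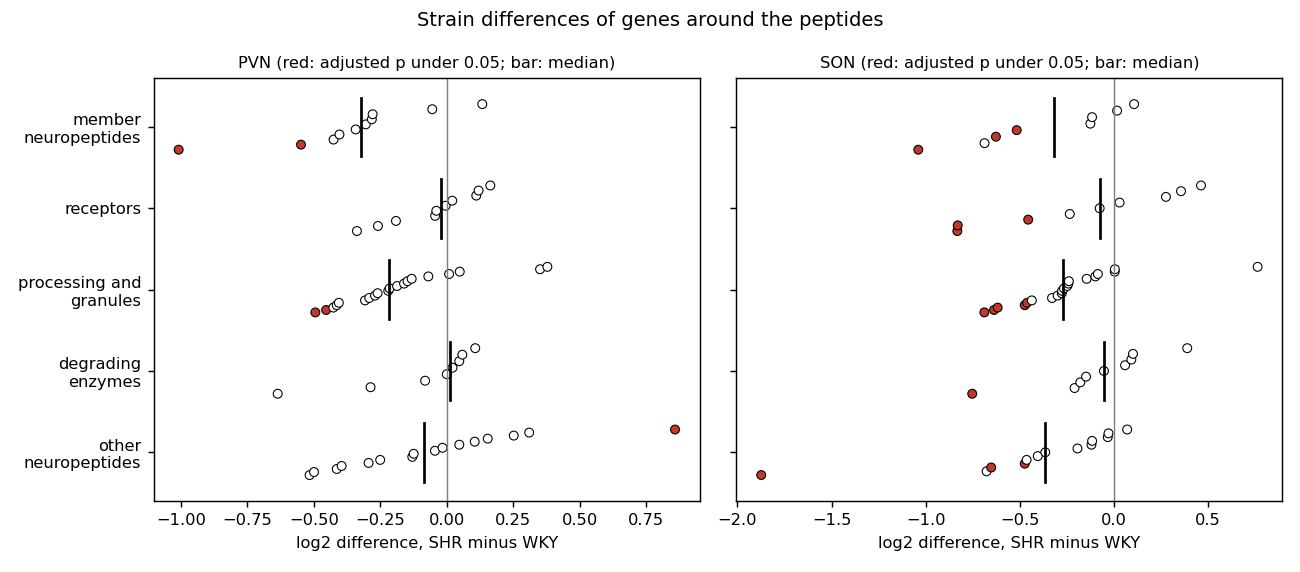
Strain difference, SHR minus WKY on the log2 scale, of every tested gene in the 5 groups around the peptides, with PVN at left and SON at right; bars are medians and red points have an adjusted p under 0.05. The member medians are -0.32 in both nuclei, and the receptor medians are -0.02 in the PVN and -0.08 in the SON.

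Marker lists of cell types are described beside these results, and a link between them and the members was not tested. Of 11 general neurone markers, 0 of 10 tested were called in the PVN and 0 of 9 in the SON by either test, with 3 and 4 at an unadjusted p under 0.05 and medians of -0.18 and -0.24. Their mean level ran from 8.46 to 9.13 in SHR PVN against 8.72 to 9.0 in WKY PVN, and from 8.34 to 8.64 in SHR SON against 8.49 to 8.80 in WKY SON. Of 8 PVN neurone markers, a list that includes Trh and Sst, only Sim1 was called between the strains, at -0.94 in the PVN (adjusted p = 2.74e-05) and -0.97 in the SON (adjusted p = 0.00969), where the test of the study's methods did not call it. In that list 5 of 6 tested in the PVN and 2 of 5 in the SON had an unadjusted p under 0.05, with medians of -0.37 and -0.13.

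The magnocellular markers had negative median differences too, SHR minus WKY, beside the -0.32 of the members in each nucleus. Of 6 on the array 0 were called in the PVN by either test, with 5 at an unadjusted p under 0.05 and a median of -0.39. In the SON Vgf alone was called among 5 tested, 0 by the test of the study's methods, 3 had an unadjusted p under 0.05, and the median was -0.40. Their mean level ran from 9.24 to 9.56 in SHR PVN against 9.61 to 9.79 in WKY PVN, and from 9.88 to 9.98 in SHR SON against 10.04 to 10.59 in WKY SON, without overlap in either nucleus. The PVN neurone list, which shares Avp and Oxt, did not overlap in the PVN either (7.95 to 8.22 in SHR against 8.28 to 8.49 in WKY). In the SON that list overlapped (6.37 to 6.69 in SHR against 6.66 to 7.13 in WKY). No background share is given for such list means or for the counts at an unadjusted p.

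Markers of neighbouring tissue differed between the nuclei. Of 7 suprachiasmatic genes, all 3 tested were called between the nuclei in each strain by limma, Six6 (-2.95 in SHR and -2.87 in WKY) and Lhx1 (-1.28 and -1.41) lower in the SON and Rgs16 (0.56 and 0.61) higher. By the test of the study's methods 1 of these was called in SHR and 2 in WKY. The SON means of Six6 (2.56 in SHR and 2.87 in WKY) and Lhx1 (4.15 and 3.79) were under the filter, as was the WKY PVN mean of Lhx1 (5.20). The gaps of Six6 and Lhx1 therefore rest on dim SON signals, with Six6 at the floor on some SON arrays of both strains. Of 8 arcuate genes 4 were tested. Ghrh was lower in the SON, with differences of -1.41 in SHR and -1.75 in WKY, at 3.81 in SHR SON against 5.22 in SHR PVN and 3.97 in WKY SON against 5.71 in WKY PVN. Only the WKY PVN mean of Ghrh passed the filter. Prlr was called higher in the SON in SHR (0.67) and Npy in WKY (0.33), and group means of Npy ran from 8.46 to 8.80. The test of the study's methods called 0 arcuate genes between the nuclei in SHR and 1 in WKY. Pomc, at the floor in 3 of the 4 groups, was not tested. Between the strains 0 arcuate and 0 suprachiasmatic genes were called in either nucleus by either test, with 1 arcuate gene (Ghrh) at an unadjusted p under 0.05 in the PVN. Of 8 ependymal and choroid plexus genes, 2 of 5 tested were higher in SHR PVN, Tekt1 (0.47) and Ak7 (0.48), which the test of the study's methods did not call, and 4 of 5 were lower in the SON than in the PVN in each strain. Their mean level ran from 4.57 to 5.15 in SHR SON against 6.07 to 6.72 in SHR PVN, and from 4.60 to 5.00 in WKY SON against 5.93 to 6.49 in WKY PVN. Of 10 meningeal genes, all were higher in the SON than in the PVN in both strains, and 3 (Dcn, Lum and Crabp2) were higher in SHR SON than in WKY SON, 0 by the test of the study's methods, with mean levels of 8.11 to 9.41 in SHR SON and 7.68 to 8.31 in WKY SON. Astrocyte, microglial and oligodendrocyte lists had 0 called genes between the strains in either nucleus by either test, with 0 to 2 genes per list at an unadjusted p under 0.05. Thalamic, cortical and striatal lists had 1 call between the strains, Calb2 in the SON (-0.43, adjusted p = 0.0393), and 0 by the test of the study's methods. The part of these cells in the neuropeptide differences was not tested.

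For the 6 members whose group means spanned at least 2 log2 units, the genes of most similar pattern were sought by the root mean square difference over all 19 arrays after each gene was centred on its own mean, which is a description with no test. The closest to Trh were Fam216b (0.36), Aurkb (0.40) and Spmip6 (0.41). Sst was nearest to Dynlrb2 (0.44), Crh (0.49) and Spaca9 (0.55), Pmch to Tmem212 (0.55), Mlf1 (0.61) and Ak7 (0.62), and Hcrt to Cfap161 (0.50), a second probe set of Tmem212 (0.55) and Dynlrb2 (0.58). Grp was nearest to Fam216b (0.41), Tekt3 (0.47) and Rprm (0.53). Penk was nearest to the neuronal pentraxin Nptx1 (0.29), the unnamed locus LOC102553190 (0.29) and the homeobox gene Dlx1 (0.30). Several of these genes, such as Tekt3, Ak7, Dynlrb2 and Cfap161, are known from motile cilia. The arrays share 2 tissues and 2 strains, so that genes with a like step between PVN and SON stand close together by this measure.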

How the data were processed

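RNA of the PVN and SON was extracted, amplified linearly for 1 round, labelled with biotin and hybridised to the arrays. The authors deposited intensity values, linear MAS 5.0 signals that had been scaled array by array (trimmed means 100.02 to 100.03). Their later GeneSpring normalisation and detection calls were not used here, and no 2-fold cut-off chose the probe sets tested. This holds for the test of the study's methods too. The 19 arrays were grouped by their labels. Signals were centred on each array's median, floored at the 10th percentile (3.76) and log2 transformed. 57 control probe sets were left out of the tests. Gene symbols came from the platform annotation, updated through the Entrez number, which left 1 symbol for 20826 probe sets. All members, and list genes that passed in a strain comparison (up to 8 per list), are named. The members and lists were chosen with earlier results of these data known. Strains were compared within each nucleus, and a fit of all 4 groups gave the nucleus differences and the interaction, with limma 3.58.1 in R 4.3.3. Calls are at an adjusted p under 0.05. The number of arrays limits the precision. The probe set of Tac1 can bind several transcripts. Alternatives covered normalization, filter, floor, test, moderation, array weights, samples in the fit, replicate block and leaving out single arrays. The procedure was tested on simulated data. 0 arrays were identical. Figures were drawn with matplotlib 3.10.9.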

Additional observations from a re-analysis of the deposited data

Results flagged for a closer look

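Hcrt in SON SHR array 4 was 3.87 on the log2 scale, while the other 3 SHR SON arrays lay between 4.76 and 4.94. The gap to the nearest array was 0.83 of the range of the group. It was the 1 such case among 40 groups of member and tissue examined, where chance flags about 1 in 20, and Hcrt was under the filter in the SON, so no test rests on it.

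For Nmb the SON strain difference less the PVN strain difference was -0.98 (limma adjusted p = 0.0272), with SHR below WKY by 1.04 in the SON and by 0.06 in the PVN. All 4 SHR SON arrays lay under all 5 WKY SON arrays, while the strains overlapped in the PVN.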

How the results depend on the processing

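No member's called value changed sign under any alternative. The count of members called in the PVN (2) was 1 after quantile normalization and with no centring, 0 with no filter, 0 with the methods' Welch test, 6 with arrayWeights and 1 to 3 with 1 array left out. Over all probe sets the PVN count (380) was 608 with no centring, 241 with no filter, 119 with the Welch test, 900 with arrayWeights and 273 to 736 with 1 array left out, the highest without SHR array 1. In the SON the count of members (3) was 1 with no filter, 1 with the Welch test and 2 to 3 with 1 array left out. Over all probe sets the SON count (586) was 291 with no filter, 176 with the Welch test, 921 with an intensity trend, 1573 with arrayWeights, 342 with the replicate block and 322 to 722 with 1 array left out. Between the nuclei in SHR the count over all probe sets (5033) was 2754 with the Welch test, and 10 members were called in every fit with 1 array left out. For the interaction the count of members (1) was 0 with no filter, 0 with the replicate block and 0 to 1 with 1 array left out, and over all probe sets (14) it was 22 after quantile normalization, 25 with the floor at the 25th percentile, 48 with arrayWeights and 6 to 20 with 1 array left out. The causes of these shifts were not tested, except that no filter adjusts p over more probe sets.

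Whether arrays with the same replicate number share rats or a batch could not be decided from 4 or 5 pairs per comparison. Across strains, deviations of same-numbered PVN arrays had correlations of -0.23 to 0.08, and those of SON arrays -0.01 to 0.10. Across nuclei the correlations were 0.04 to 0.17 for SHR, all positive, and -0.009 to -0.001 for WKY, all negative. The best match carried the same number in 1 of 5 PVN pairs and 2 of 4 SON pairs. Across nuclei it did so in 2 of 4 SHR pairs and 0 of 5 WKY pairs. With the replicate block the calls on Cartpt in the SON and on the Nmb interaction were lost, and the other member calls were kept. With arrayWeights, Trh, Sst, Penk and Cartpt were also called lower in the PVN. Sst in the PVN was called with an intensity trend, and Trh in the SON with an intensity trend and with all 4 groups in 1 fit. Signals near the floor limit what can be read of Hcrt and Grp in the SON.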
